A study of Homo sapiens with 15 samples.

Results

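The effect of raising ATRNL1 minus the effect of lowering it was computed for each gene in human atrial cardiomyocytes. These were induced atrial cardiomyocytes of wt genotype, made from the embryonic stem cell line H7-ESC with retinoid treatment for the atrial fate, and dissociated from spheroids at day 17. Cells had a lentivirus with the short ATRNL1 isoform (ATRNL1 lentivirus) or a control lentivirus, or were given 1 of 2 siRNAs against ATRNL1 (siRNA-1 and siRNA-2) or a scramble siRNA, with 3 libraries in each of the 5 groups. Per the labels' protocols the lentiviral cells were selected with puromycin, and no such step is given for the siRNA cells. The sources used here name neither the promoter of the vector nor the day of treatment or of harvest. The overexpression effect is the log2 level with the ATRNL1 lentivirus minus that with the control lentivirus. The knockdown effect is the mean log2 level of siRNA-1 and siRNA-2 minus that of scramble, and the difference of effects is the overexpression effect minus the knockdown effect. A positive difference therefore means that a gene stood higher, relative to the control of its own delivery, with more ATRNL1 than with less. The members were all genes with enough counts, 24659 of the 58780 genes in the table, over all 15 libraries.

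ATRNL1 codes for attractin-like 1, a relative of the membrane protein attractin that the study examined for a role in atrial fibrillation. In mice attractin acts with the ubiquitin ligase MGRN1 in the control of pigment through melanocortin signalling. Cells that face misfolded proteins in the endoplasmic reticulum raise chaperones and degradation factors through the unfolded protein response, and the overlapping integrated stress response raises genes of amino acid supply through ATF4. Heart muscle cells from stem cells are immature and can still divide, and the E2F transcription factors drive their genes of DNA replication.

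The libraries did not all stand apart within their groups, which bears on every p-value below. Scramble library 3 stood close to a 52:48 mixture of scramble libraries 1 and 2, with a mean squared residual of 2.82 times the counting variance, against 22.5 and 28.6 for the other two. SiRNA-1 library 2 (2.48 times) and control lentivirus library 2 (3.62 times) also lay midway between the other two of their group. In 4 groups the title of 1 sample joins the numbers of the other two, and what that means is not given. The labels do not say whether libraries are separate cultures, and p-values then cover just the spread among these samples, possibly technical. Depth was 37078568 to 108663135 counts a library. On the first principal component (58.4% of variance) the control lentivirus libraries were at 99.32 to 110.5, the ATRNL1 lentivirus at 44.55 to 64.12 and the 9 siRNA libraries at -68.02 to -44.96. The 2 lentiviral groups thus stood apart from the siRNA groups, and the ATRNL1 lentivirus libraries lay between their own control and the siRNA libraries. Delivery, selection and group cannot be told apart between these arms, so the 2 effects were each taken within an arm before they were subtracted.

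Cardiomyocyte markers were high in every library, with TNNT2, cardiac troponin T, at 2528 to 3904 CPM (read counts scaled by library size). Of 7 atrial markers 5 averaged at least 1 CPM, with MYL7 at 1676 to 2637 CPM, whereas SLN, which encodes sarcolipin, was at 0.0363 to 0.242 CPM and NR2F1 at 0.366 to 0.98 CPM. The summed atrial markers were at 3216 to 3410.4 CPM with the ATRNL1 lentivirus, 4190.4 to 4260.4 CPM with the control lentivirus, 2513 to 3298 CPM with siRNA-1, 3109.7 to 3293 CPM with siRNA-2 and 2499 to 3599.7 CPM with scramble.

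The difference of effects was called for 7879 genes, 32% of those tested, at an adjusted p under 0.05 by the quasi-likelihood test of edgeR, Benjamini-Hochberg adjusted over all genes. It was positive for 4066 genes (16.5%) and negative for 3813 genes (15.5%). Its size was at least 1 on the log2 scale for 1021 of the positive and 1229 of the negative genes. The larger share of these calls came with a call of the overexpression effect alone. Of the 7879 genes, 4904 (62.2%) were called for overexpression and not for knockdown, and 953 (12.1%) for knockdown and not for overexpression. A further 1194 (15.2%) were called in both effects with opposite signs, 304 (3.86%) in both with the same sign, and 524 (6.65%) in neither. The overexpression effect was the larger of the 2 in absolute size for 6321 genes (80.2%). With each siRNA in turn as the knockdown, 5747 of the genes (72.9%) were also called with the same sign both times. In bulk RNA, fewer cells of a type and less RNA per cell cannot be told apart, which holds for every level below. Where the knockdown was set against scramble library 1 only, the counts were 2693 positive and 2193 negative. Without the 3 midway libraries, a setting chosen after seeing the data, they were 2818 positive and 2628 negative, and 5320 of the calls (67.5%) were kept.

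Each effect had its own background. The overexpression effect was called higher for 4715 genes (19.1%) and lower for 4434 (18%), and the knockdown effect higher for 2113 (8.57%) and lower for 1755 (7.12%). Called in both effects, 546 genes (2.21%) rose with overexpression and fell with knockdown, and 648 (2.63%) fell with overexpression and rose with knockdown. In the same direction, 618 genes (2.51%) rose with both and 409 (1.66%) fell with both. Opposite and equal directions were thus of like frequency, and over all 24659 genes, called or not, 12612 (51.1%) had effects of opposite sign. Over all genes tested, which share the 15 libraries, the 2 effects had a Spearman's rho of -0.02, and over the 2221 genes called in both it was -0.04.

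**Figure D1:**
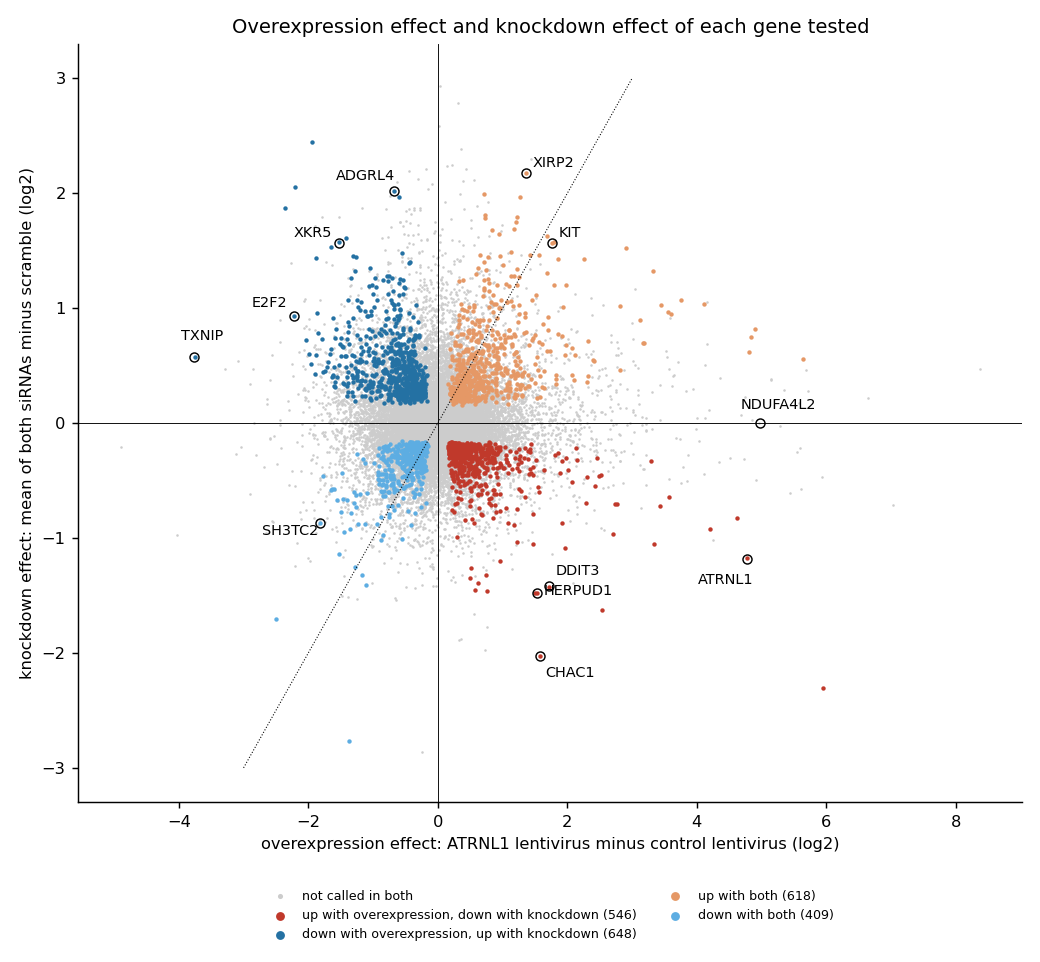
Each point is 1 of 24659 genes tested, by its overexpression effect (x axis, log2) and its knockdown effect (y axis, log2), coloured by the pairing of directions where both effects were called. The dotted line marks equal effects, a difference of 0, and the colours fill all 4 quadrants, with 546, 648, 618 and 409 genes.

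Genes that rose with overexpression and fell with knockdown made up 11.6% of those that rose with overexpression and 31.1% of those that fell with knockdown. Their median effects were 0.48 and -0.29, their median difference 0.80 and their median level 43.3 CPM. Genes of the reverse pairing made up 14.6% of those that fell with overexpression and 30.7% of those that rose with knockdown, with median effects of -0.59 and 0.42, a median difference of -1.07 and a median level of 15.7 CPM. Genes that rose with both (13.1% and 29.2%) had medians of 0.63 and 0.43, and genes that fell with both (9.22% and 23.3%) had medians of -0.41 and -0.31. The 4 pairings held 87.3% to 94.5% protein-coding genes, against 61.6% of all genes tested, whose median level was 2.75 CPM. Among protein-coding genes, the median span was 28.7 kb where overexpression raised and knockdown lowered a gene and 60.9 kb in the reverse pairing. It was 47.4 kb for genes that rose with both and 51.1 kb for genes that fell with both. Over all protein-coding genes tested it was 33.8 kb. In the pairings of the same direction the difference itself was called for 211 of the 618 genes that rose with both, 178 of them with the larger effect under overexpression, and for 93 of the 409 that fell with both, 9 of them positive. In most of these genes the 2 effects were thus not told apart by the test, which does not show that they were equal.

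These genes were selected by being called in both effects. All 3 ATRNL1 lentivirus libraries lay on one side of all 3 control lentivirus libraries, and all 6 siRNA libraries on one side of all 3 scramble libraries, for 320 of the 546 genes, 393 of the 648, 420 of the 618 and 223 of the 409, against 8.27% of all genes tested, and the rest overlapped in at least 1 arm. Counts of the pairings changed with the scramble libraries used. Where only 1 scramble library was the control, fewer libraries entered the test, and a call can be lost there though the effect size is unchanged. Set against scramble library 1 only, the 4 pairings held 108 genes (up with overexpression, down with knockdown), 102 (the reverse), 225 (up with both) and 214 (down with both). Set against scramble library 2 only they held 490, 823, 442 and 170 genes in that order. Without the 3 midway libraries they held 145, 232, 251 and 103 genes in the same order. Where each siRNA had to be called by itself, 169, 275, 281 and 113 genes were left.

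**Figure D2:**
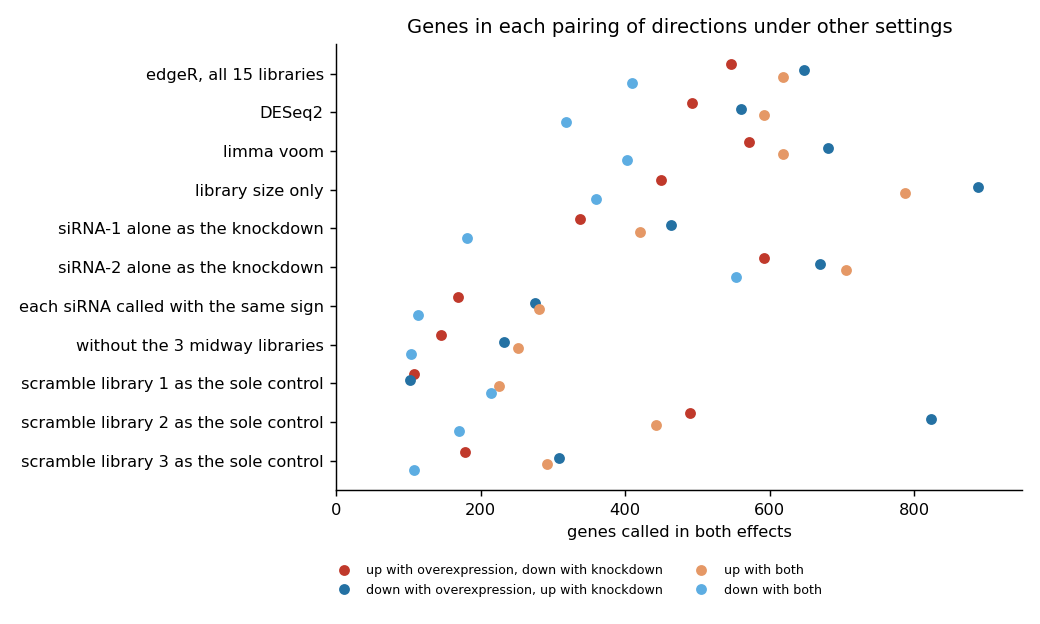
The x axis gives the number of genes called in both effects in each of the 4 pairings (colours), and each line on the y axis is a setting of the test. Counts were lower against scramble library 1 only (108, 102, 225 and 214) than with all 15 libraries (546, 648, 618 and 409).

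ATRNL1 itself (ENSG00000107518.17, chromosome 10, 115093365 to 115948992, plus strand) had the largest difference among genes of at least 1 CPM. It was at 636, 927 and 727 CPM with the ATRNL1 lentivirus, against 29.2, 27.6 and 27.1 CPM with the control lentivirus. With siRNA-1 it was at 10.2, 9.02 and 8.26 CPM and with siRNA-2 at 4.93, 5.41 and 4.61 CPM, against 16.9, 13.8 and 15.3 CPM with scramble. No library of a treated group overlapped its control, and vector reads cannot be told apart from those of the endogenous gene. The difference was 5.95 (SE 0.15, adjusted p = 1.34e-19), from an overexpression effect of 4.77 and a knockdown effect of -1.18. ATRN, which encodes attractin, had 171, 199 and 188 CPM with the ATRNL1 lentivirus, against 149.6, 159.7 and 162 CPM with the control lentivirus. Its levels were 119.9, 124 and 134 CPM with siRNA-1 and 100.3, 97.6 and 96.7 CPM with siRNA-2, against 152, 158 and 156 CPM with scramble. ATRN moved the same way as ATRNL1 in both arms, at a difference of 0.72 (SE 0.09, adjusted p = 4.95e-07), and was called in both effects under all 29 settings tried. MGRN1, the ubiquitin ligase that acts with attractin in mice, rose by 0.48 with overexpression and fell by 0.27 with knockdown, a difference of 0.75 (SE 0.10, adjusted p = 2.34e-06). Its knockdown effect was -0.07 with siRNA-1 and -0.46 with siRNA-2, and the call of both effects ended against scramble library 1 only (knockdown effect -0.22), against scramble library 3 only, with siRNA-1 alone and without the 3 midway libraries. Of the 10 genes of the attractin family and partners 4 had a positive (40%) and 1 a negative (10%) called difference. Over all genes tested these shares were 16.5% and 15.5%. The list's median difference was 0.39, against 0.01 over all genes tested. Those 4 with a positive difference also rose with overexpression and fell with knockdown, against 2.21% of all genes tested. They include ATRNL1 itself, which the treatments were made to change.

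The pairing of a rise with overexpression and a fall with knockdown was led by stress genes. CHAC1, a glutathione-degrading enzyme induced by ATF4, HERPUD1, a factor of degradation at the endoplasmic reticulum, ALDH1L2, a mitochondrial folate enzyme, and DDIT3, the stress transcription factor CHOP, were with ATRNL1 the 5 genes of this pairing with the largest smaller effect. The promoters of HSPA5 (the main chaperone of the endoplasmic reticulum), XBP1 (a transcription factor of the unfolded protein response) and CHAC1 are shown because their genes carry this pairing and their letters hold elements known for these stress responses; XBP1 was chosen after its values were seen. HSPA5 covers chr9:125241344-125241593 on the minus strand, XBP1 chr22:28800570-28800819 on the minus strand and CHAC1 chr15:40953221-40953470 on the plus strand, in RefSeq's annotation of GRCh38.p14. Each is the 250 bases before the start of the gene, 5′ to 3′. Capitals mark both ends of the endoplasmic reticulum stress element (CCAAT, 9 bases, CCACG) in HSPA5 and XBP1, and the amino acid response element (TGATGNAA, here on the reverse strand) in CHAC1.
HSPA5: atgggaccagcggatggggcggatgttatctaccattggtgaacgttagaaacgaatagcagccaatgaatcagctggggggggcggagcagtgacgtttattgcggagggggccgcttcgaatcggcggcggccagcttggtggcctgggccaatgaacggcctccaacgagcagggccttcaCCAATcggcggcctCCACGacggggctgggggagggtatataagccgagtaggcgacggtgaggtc
XBP1: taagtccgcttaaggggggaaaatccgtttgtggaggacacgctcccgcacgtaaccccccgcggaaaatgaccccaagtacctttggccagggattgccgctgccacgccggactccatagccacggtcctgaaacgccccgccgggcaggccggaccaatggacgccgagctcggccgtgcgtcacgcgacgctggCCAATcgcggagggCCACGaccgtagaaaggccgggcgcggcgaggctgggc
CHAC1: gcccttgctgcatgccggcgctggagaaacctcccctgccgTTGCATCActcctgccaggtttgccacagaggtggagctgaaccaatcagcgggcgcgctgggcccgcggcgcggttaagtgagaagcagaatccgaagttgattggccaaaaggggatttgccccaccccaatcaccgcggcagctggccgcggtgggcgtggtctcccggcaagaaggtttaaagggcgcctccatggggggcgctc
Searched on both strands, the stress element was in the 250 upstream bases of 6 of 23 genes of the unfolded protein response list that matched the RefSeq table (26.1%: CALR, CANX, CRELD2, HSP90B1, HSPA5 and XBP1), against 22 of all 27305 promoters (0.0806%). TGATGNAA was in 4 of 29 promoters of the integrated stress response list (13.8%: AARS1, ASNS, ATF3 and CHAC1), against 870 of all (3.19%). These are matches of letters in a window, which were not tested for binding.

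CHAC1 was at 0.71, 0.998 and 1 CPM with the ATRNL1 lentivirus, against 0.335, 0.324 and 0.187 CPM with the control lentivirus. With siRNA-1 it was at 1.27, 1.27 and 1.34 CPM and with siRNA-2 at 0.938, 1.31 and 1.33 CPM, against 4.89, 5.49 and 4.84 CPM with scramble. Neither arm overlapped its control, and the scramble libraries had the highest levels of the 5 groups. The difference was 3.61 (SE 0.27, adjusted p = 1.58e-10), from 1.58 with overexpression and -2.03 with knockdown. HERPUD1 was at 67.7, 92.6 and 78.6 CPM with the ATRNL1 lentivirus, against 28.2, 27.3 and 26.8 CPM with the control lentivirus. It was at 51.9, 60 and 61 CPM with siRNA-1 and 55.2, 64.7 and 72 CPM with siRNA-2, against 98.6, 239 and 168 CPM with scramble. The groups of each arm did not overlap, and the scramble libraries themselves ranged widely, with library 1 the lowest. HERPUD1 had a difference of 3.01 (SE 0.23, adjusted p = 2.97e-10), and its knockdown effect was -0.71 set against scramble library 1 only and -1.48 with all 3.

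DDIT3 was at 8.5, 11.1 and 9.47 CPM with the ATRNL1 lentivirus and 2.6, 3.03 and 3.22 CPM with the control lentivirus. In the siRNA arm it was at 9.88, 8.92 and 8.98 CPM with siRNA-1 and 8.03, 8.79 and 8.94 CPM with siRNA-2, against 14.5, 33.3 and 23.6 CPM with scramble. Its difference was 3.14 (SE 0.24, adjusted p = 1.82e-10), and its knockdown effect was -0.71 set against scramble library 1 only and -1.42 with all 3. HSPA5 was at 686, 1005 and 836 CPM with the ATRNL1 lentivirus, against 491, 498 and 503 CPM with the control lentivirus. It was at 523, 585 and 639.9 CPM with siRNA-1 and 545, 539 and 576 CPM with siRNA-2, against 905, 2193 and 1583 CPM with scramble. The siRNA libraries stood near the control lentivirus, and scramble was the group that stood high. HSPA5 had a difference of 2.22 (SE 0.23, adjusted p = 3.94e-08). XBP1 rose by 0.64 and fell by 0.74, a difference of 1.38 (SE 0.16, adjusted p = 1.5e-07), and its fall was not called against scramble library 1 only (-0.34, adjusted p = 0.101). ALDH1L2 had a difference of 2.98 (SE 0.32, adjusted p = 7.76e-08), with 6.97, 9.59 and 7.68 CPM in ATRNL1 lentivirus libraries and 2.57, 2.74 and 3.27 CPM in control lentivirus libraries. Its scramble levels of 3.43, 11.5 and 7.25 CPM spanned most of that range, and its fall was not called with library 1 alone (-0.36, adjusted p = 0.482).

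Of 26 genes of the unfolded protein response 21 had a positive called difference and 0 a negative one, with a median of 1.10. Here and in the lists below, counts stand beside 16.5% positive and 15.5% negative called differences over all genes tested. Of all genes tested 2.21% rose with overexpression and fell with knockdown, and 2.63% did the reverse. The median overexpression effect was 0.37 and the median knockdown effect -0.82, and 11 genes rose with overexpression and fell with knockdown. SDF2L1, a protein of the endoplasmic reticulum, had a difference of 2.24 (SE 0.35, adjusted p = 1.51e-05) that came from its fall of 1.88 with knockdown, whereas its overexpression effect was 0.36 (adjusted p = 0.353). Mean log2 CPM of the list was 5.87, 6.16 and 5.97 with the ATRNL1 lentivirus and 5.69, 5.69 and 5.67 with the control lentivirus. In the siRNA arm it was 5.77 to 5.90 with siRNA-1 and 5.81 to 5.88 with siRNA-2, against 6.15, 7.05 and 6.69 with scramble. Scramble libraries 2 and 3 stood above all other libraries, and against library 1 only the median knockdown effect was -0.32 and 8 genes had the pairing. Without the 3 midway libraries 5 did. The median difference ran from 0.64 to 1.49 over 28 settings, with 17 to 23 genes called positive.

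Of 34 genes of the integrated stress response 27 had a positive and 1 a negative called difference, with a median of 1.05, and 15 rose with overexpression and fell with knockdown. NUPR1, a stress-induced regulator of transcription, had a difference of 3.49 (SE 0.34, adjusted p = 1.21e-08) that came from overexpression, at 3.03, 3.43 and 3.85 CPM with the ATRNL1 lentivirus, against 0.526, 0.233 and 0.49 CPM with the control lentivirus. Its knockdown effect was -0.36 (adjusted p = 0.262). Mean log2 CPM of the list was 4.00, 4.35 and 4.20 with the ATRNL1 lentivirus and 3.46, 3.43 and 3.48 with the control lentivirus, a gap larger than the spread within either group. It was 4.52 to 4.58 with siRNA-1 and 4.21 to 4.43 with siRNA-2, against 4.56, 5.23 and 4.96 with scramble. Against library 1 only, the median knockdown effect was 0.04 and 4 genes had the pairing (8 without scramble library 2), so the fall of this list with knockdown rested on scramble libraries 2 and 3.

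Cholesterol synthesis moved likewise. Of its 23 genes 17 had a positive and 1 a negative called difference, with a median of 0.80, and 12 rose with overexpression and fell with knockdown. INSIG1, which holds the sterol sensor in the endoplasmic reticulum, was at 81.4, 111 and 88.4 CPM with the ATRNL1 lentivirus, against 34.8, 31.1 and 29.5 CPM with the control lentivirus. It was at 59.8, 60.2 and 61.1 CPM with siRNA-1 and 75.3, 75.7 and 76.9 CPM with siRNA-2, against 98.9, 108 and 102 CPM with scramble. No groups of an arm overlapped, and the difference was 2.16 (SE 0.11, adjusted p = 5.09e-13). INSIG1 was called for a rise with overexpression and a fall with knockdown under all 29 settings. MVD, which encodes the decarboxylase of mevalonate, had a difference of 2.00 (SE 0.15, adjusted p = 1.47e-10) and kept the pairing under all 29 settings. DHCR7, the last enzyme of cholesterol synthesis by the Kandutsch-Russell route, had a difference of 1.86 (SE 0.12, adjusted p = 9.98e-12), and its fall with knockdown was not called against scramble library 1 only (-0.28, adjusted p = 0.203). The list's mean log2 CPM was 5.15 to 5.30 with the ATRNL1 lentivirus and 4.72 to 4.77 with the control lentivirus. It was 5.15 to 5.21 with siRNA-1 and 5.38 to 5.42 with siRNA-2, against 5.57 to 5.64 with scramble, so that here the scramble libraries lay close together. Against the first scramble library only, 8 genes had the pairing at a median knockdown effect of -0.31, and the median difference ran from 0.70 to 0.91 over 28 settings. The sterol element TCACCCCAC was in 1 of 18 upstream windows of the list (5.56%), against 95 of all (0.348%).

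Of 24 p53 targets 14 had a positive and 1 a negative called difference, with a median of 0.39, and 7 rose with overexpression and fell with knockdown. PHLDA3, a p53-induced inhibitor of AKT, rose by 0.73 and fell by 0.27, a difference of 1.01 (SE 0.11, adjusted p = 1.58e-07). BBC3, the cell death protein PUMA, had a difference of 1.88 (SE 0.29, adjusted p = 1.39e-05), and its knockdown call held in 11 of 29 settings. The kinase PLK3 had a difference of 1.00 (SE 0.28, adjusted p = 0.0075), with an overexpression effect of 0.53 (adjusted p = 0.0844). Of 28 lysosome and autophagy genes 17 had a positive and 1 a negative called difference, with a median of 0.37. Of these genes 7 rose with overexpression and fell with knockdown, and 1 did the reverse. The largest differences came from overexpression. ATG9B, an autophagy protein, was at 6.15, 4.9 and 7.39 CPM with the ATRNL1 lentivirus, against 0.654, 0.233 and 0.303 CPM with the control lentivirus (difference 4.04, SE 0.33, adjusted p = 5.19e-10). SQSTM1, an autophagy receptor, had a difference of 1.07 (SE 0.12, adjusted p = 8.16e-08) and GPNMB, a membrane glycoprotein of lysosomes, 1.08 (SE 0.21, adjusted p = 0.000284), with knockdown effects of -0.08 and -0.02. When scramble library 1 was the only control, the median knockdown effect was -0.20 for the p53 list and -0.01 for the lysosome list. With all scramble libraries these medians were -0.30 and -0.09. Without the 3 midway libraries 1 gene of the p53 and 2 of the lysosome list rose with overexpression and fell with knockdown. Without scramble library 2 the lysosome list held 3 such genes.

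**Figure D3:**
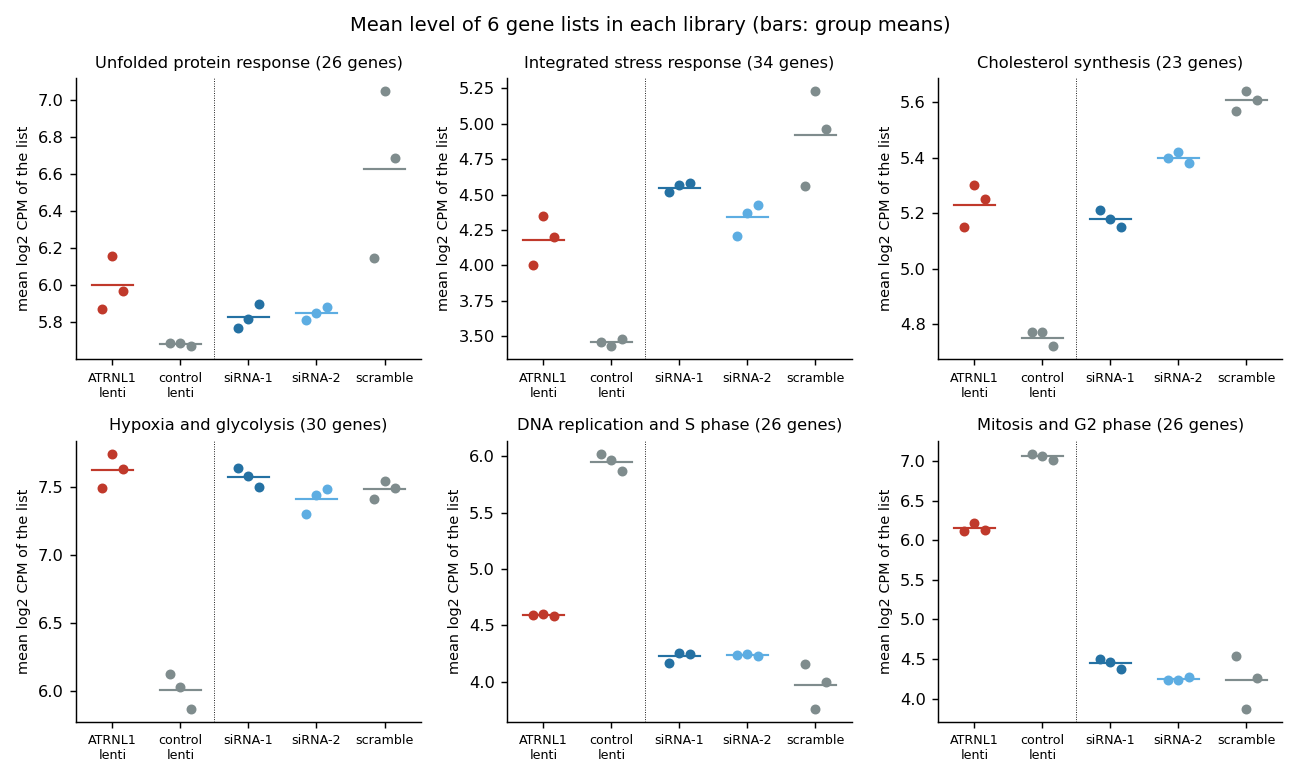
Each point is the mean log2 CPM (y axis) of a list in 1 library, by group (x axis), and bars are means of 3 libraries. The unfolded protein response and integrated stress response lists stood high in scramble libraries 2 and 3. In every list shown, the ATRNL1 lentivirus libraries did not overlap the control lentivirus libraries.

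The pairing of a fall with overexpression and a rise with knockdown was led by XKR5, an XK-related membrane protein, ENTREP2, GPR137C, a membrane protein, CENPH, a subunit of the kinetochore, and RSAD2, the antiviral protein viperin. XKR5 was at 2.43, 2.99 and 2.89 CPM with the ATRNL1 lentivirus, against 7.92, 8.35 and 7.61 CPM with the control lentivirus. It was at 0.802, 1.27 and 1.29 CPM with siRNA-1 and 1.56, 1.73 and 1.11 CPM with siRNA-2, against 0.456, 0.413 and 0.428 CPM with scramble. Neither arm overlapped its control, with a difference of -3.11 (SE 0.24, adjusted p = 2.37e-10). CENPH was at 29.9, 32.9 and 25.8 CPM with the ATRNL1 lentivirus, against 76.8, 70.6 and 61.1 CPM with the control lentivirus. It was at 13.2, 12.4 and 14.3 CPM with siRNA-1 and 12.8, 12.5 and 13.7 CPM with siRNA-2, against 7.25, 5.87 and 6.47 CPM with scramble. Both siRNA groups stood above every scramble library and below every lentiviral library, and the difference was -2.25 (SE 0.13, adjusted p = 2.23e-12). GPR137C had a difference of -2.24 (SE 0.14, adjusted p = 9.48e-12), and XKR5, CENPH and GPR137C kept the pairing under all 29 settings. For RSAD2 the siRNA libraries overlapped scramble, and its siRNA-1 effect was 0.94 (adjusted p = 0.0812). RSAD2 lost the pairing with siRNA-1 alone and without the 3 midway libraries. ENTREP2 had a difference of -2.77 (SE 0.26, adjusted p = 9.28e-09) and RSAD2 -2.23 (SE 0.37, adjusted p = 3.8e-05). Set against scramble library 1 only, their knockdown effects were 0.94 (adjusted p = 0.0556) and 0.36 (adjusted p = 0.746).

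Genes of DNA replication and S phase gave the most uniform list of this direction. All 26 tested had a negative called difference, with a median of -1.51, and all 26 fell with overexpression, at a median of -1.36. With knockdown 12 rose and 0 fell, at a median of 0.21. The promoters of a pair of genes with this pairing are shown, since E2F elements are known to drive replication genes: E2F2, itself an E2F transcription factor, and MCM6, a subunit of the replicative helicase that was chosen after its values were seen. E2F2 covers chr1:23531234-23531483 and MCM6 chr2:135876444-135876693, both on the minus strand, in RefSeq's annotation of GRCh38.p14. Each is the 250 bases before the gene's start, 5′ to 3′, and capitals mark TTTGGCGC, 1 of the 2 E2F elements searched.
E2F2: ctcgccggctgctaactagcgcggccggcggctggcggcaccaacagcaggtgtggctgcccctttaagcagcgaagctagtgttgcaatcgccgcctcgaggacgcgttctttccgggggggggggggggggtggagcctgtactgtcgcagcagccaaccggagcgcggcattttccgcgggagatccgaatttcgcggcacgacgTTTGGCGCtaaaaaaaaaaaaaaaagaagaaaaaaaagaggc
MCM6: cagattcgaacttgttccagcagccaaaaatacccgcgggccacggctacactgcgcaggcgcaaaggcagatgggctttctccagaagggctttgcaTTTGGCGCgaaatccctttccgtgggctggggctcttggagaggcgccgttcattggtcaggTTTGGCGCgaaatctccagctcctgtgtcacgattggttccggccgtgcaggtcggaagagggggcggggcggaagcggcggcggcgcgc
TTTCCCGC or TTTGGCGC on either strand was in 12 of 22 matched promoters of the list (54.5%: CDT1, E2F1, GINS2, LIG1, MCM3, MCM6, MCM7, PCNA, POLA1, POLE, TYMS and UHRF1), against 536 of all 27305 (1.96%). E2F2, which was chosen by the size of its difference, was at 1.99, 2.07 and 2.31 CPM with the ATRNL1 lentivirus, against 10.4, 9.46 and 9.68 CPM with the control lentivirus. With siRNA-1 it was at 1.94, 2.07 and 2.32 CPM and with siRNA-2 at 2.36, 2.59 and 2.68 CPM, against 1.48, 0.992 and 1.21 CPM with scramble. The control lentivirus stood far above the other 4 groups, and the difference was -3.15 (SE 0.18, adjusted p = 1.69e-12).

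MCM6 was at 61.5, 62.8 and 62.6 CPM with the ATRNL1 lentivirus, against 197, 191 and 182 CPM with the control lentivirus. It was at 44.6, 45.2 and 45.9 CPM with siRNA-1 and 40.8, 39.4 and 39.6 CPM with siRNA-2, against 34.9, 24.3 and 31.8 CPM with scramble. Its groups did not overlap in either arm, at a difference of -2.10 (SE 0.11, adjusted p = 1e-12). CDC45, a factor of the replicative helicase, had a difference of -2.59 (SE 0.21, adjusted p = 6.79e-10), MCM10, a replication initiation factor, -2.47 (SE 0.19, adjusted p = 1.97e-10), and RRM2, a subunit of ribonucleotide reductase, -2.41 (SE 0.26, adjusted p = 5.79e-08). RRM2 had a knockdown effect of 0.26 (adjusted p = 0.393), and against scramble library 1 only the knockdown effects of E2F2 (0.64, adjusted p = 0.0725), MCM6 (0.28, adjusted p = 0.0925), CDC45 (0.14) and MCM10 (0.09) were not called. Mean log2 CPM of the list was 4.59, 4.60 and 4.58 with the ATRNL1 lentivirus and 6.02, 5.97 and 5.87 with the control lentivirus. In the siRNA arm it was 4.17 to 4.26 with siRNA-1 and 4.23 to 4.25 with siRNA-2, against 4.16, 3.76 and 4.00 with scramble. The ATRNL1 lentivirus libraries thus stood nearer to the siRNA arm than to their own control. Against the first scramble library the median knockdown effect was 0.09 and 1 gene had the pairing, whereas all 26 differences stayed negative and called over 28 settings.

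Of 26 genes of mitosis and the G2 phase 25 had a negative called difference, with a median of -1.04, and all 26 fell with overexpression. Only 2 rose with knockdown, at a median effect of 0.09, so that 2 had the opposite pairing. That count was 15 without scramble library 1 (median knockdown effect 0.30), 19 against scramble library 2 only (0.52) and 0 against scramble library 1 only (-0.18). KIF11, a mitotic kinesin, was at 140.2, 154 and 135 CPM with the ATRNL1 lentivirus, against 349.7, 331 and 325 CPM with the control lentivirus, a difference of -1.53 (SE 0.14, adjusted p = 3.19e-09). ANLN, a scaffold of cell division, had a difference of -1.29 (SE 0.14, adjusted p = 8.43e-08) and BUB1B, a spindle checkpoint kinase, -1.28 (SE 0.13, adjusted p = 4.83e-08). Mean log2 CPM of the list was 6.12, 6.22 and 6.13 with the ATRNL1 lentivirus and 7.09, 7.06 and 7.01 with the control lentivirus, against 3.87 to 4.54 over all siRNA and scramble libraries. The 10 pluripotent cell markers summed to 15.2 to 17.7 CPM with the ATRNL1 lentivirus, 22.6 to 25.6 CPM with the control lentivirus, 17.8 to 18.8 CPM with siRNA-1, 17 to 18.7 CPM with siRNA-2 and 13.1 to 16.8 CPM with scramble. Like the S phase and mitosis lists, these markers were highest with the control lentivirus. Unlike those lists, they did not stand above the siRNA-1 and siRNA-2 libraries with the ATRNL1 lentivirus. Of the 10 markers 2 averaged at least 1 CPM, and their part in the result was not tested.

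Genes of neurites and adhesion also had mostly negative differences, which came more from knockdown. Of 25 tested, 12 had a negative (48%) and 2 a positive (8%) called difference, against 15.5% and 16.5% of all genes tested. The median difference was -0.46, from a median knockdown effect of 0.38 and a median overexpression effect of 0.07. With knockdown 14 rose and 0 fell, and 5 of these rose with both. MAP2, a microtubule protein of dendrites, was at 16.5, 18.3 and 15.5 CPM with the ATRNL1 lentivirus, against 35.2, 38.3 and 35.4 CPM with the control lentivirus. It was at 31.1, 25.7 and 22.9 CPM with siRNA-1 and 24.4, 24.3 and 24.1 CPM with siRNA-2, against 14.9, 15 and 15.1 CPM with scramble. No libraries overlapped in either arm, the difference was -1.87 (SE 0.12, adjusted p = 9.74e-12), and the pairing held under all 29 settings. Against scramble library 1 only the list had 6 negative calls, at a median difference of -0.25. ROBO1, a receptor of axon guidance, had a difference of -1.34 (SE 0.14, adjusted p = 6.17e-08). Its knockdown effect against scramble library 1 only was 0.01 (adjusted p = 0.976). The 10 neural markers summed to 27.6 to 33 CPM with the ATRNL1 lentivirus, 48.1 to 52.1 CPM with the control lentivirus, 40 to 52.4 CPM with siRNA-1, 39.5 to 40.7 CPM with siRNA-2 and 24.2 to 25.4 CPM with scramble. In the siRNA arm they moved with this list, higher with both siRNAs than with scramble. In the lentiviral arm they fell with overexpression, whereas the list's mean log2 CPM was 2.76 in both groups. The markers shared MAP2 (14.9 to 38.3 CPM) with the list, and their part in the result was not tested.

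**Figure D4:**
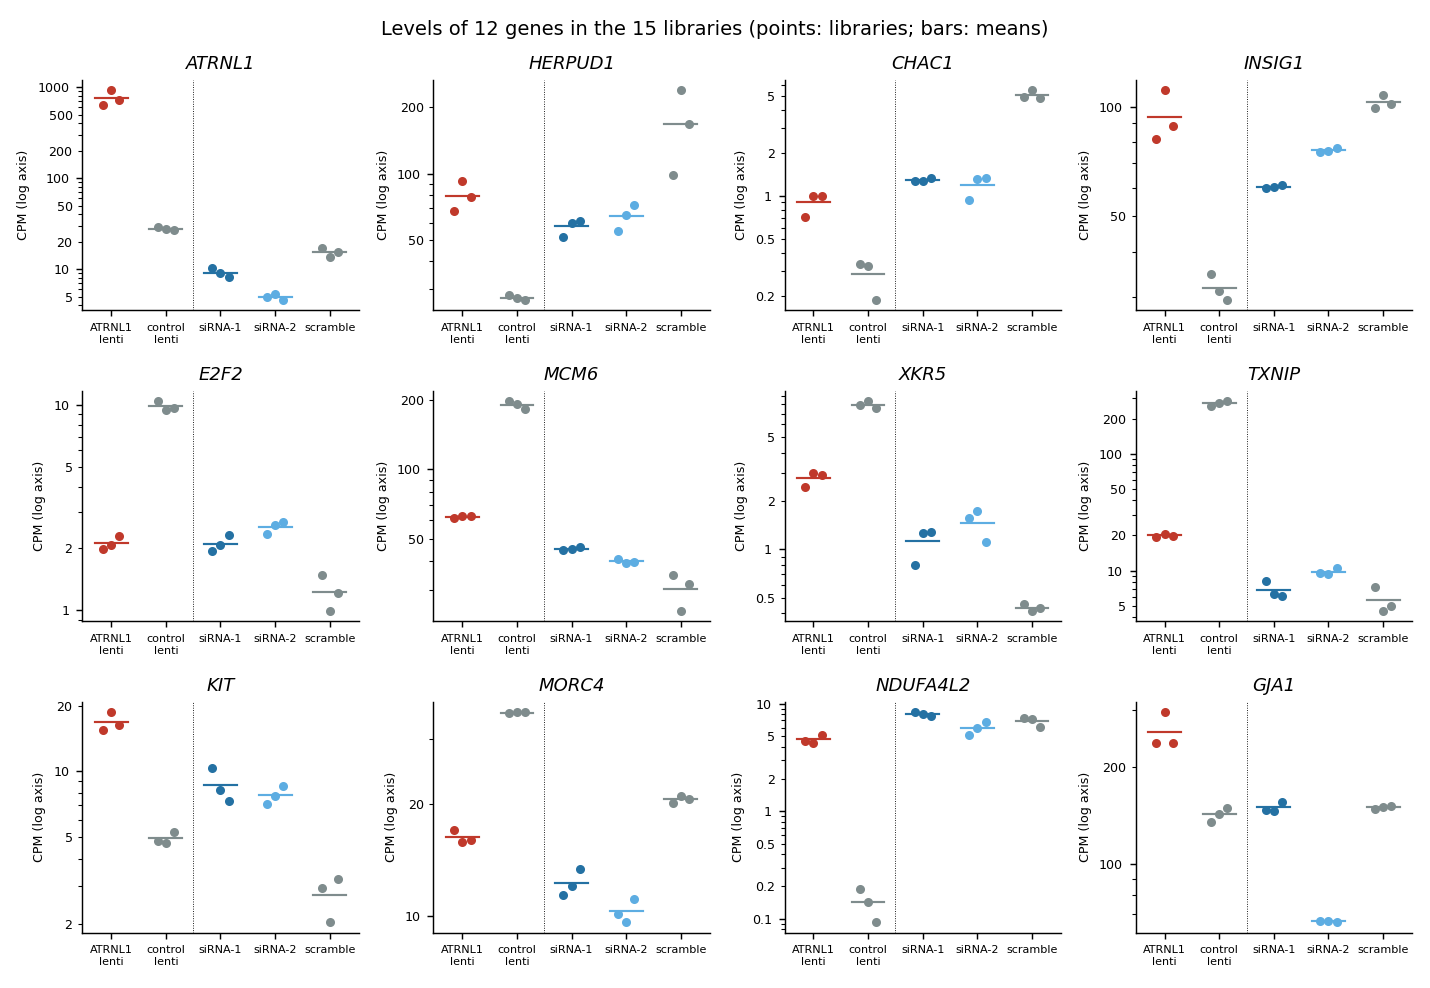
Levels of 12 genes in CPM (y axes, log scale) in each library (points) by group (x axes), with bars at the mean of 3 libraries. ATRNL1, HERPUD1, CHAC1 and INSIG1 rose with overexpression and fell with knockdown, E2F2, MCM6, XKR5 and TXNIP did the reverse, KIT rose with both, MORC4 fell with both, NDUFA4L2 changed with overexpression alone, and GJA1 fell with siRNA-2 and not with siRNA-1.

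Among genes that rose with both, KIT, the stem cell factor receptor, GADL1, a decarboxylase, CNTN3, an adhesion molecule, XIRP2, an actin-binding protein of intercalated discs, and NCMAP, a protein of myelin, had the largest smaller effect. KIT was at 15.4, 18.6 and 16.3 CPM with the ATRNL1 lentivirus, against 4.82, 4.71 and 5.3 CPM with the control lentivirus. With siRNA-1 it was at 10.4, 8.27 and 7.33 CPM and with siRNA-2 at 7.09, 7.71 and 8.62 CPM, against 2.93, 2.05 and 3.23 CPM with scramble. Every treated library of KIT stood above every control library of its arm. The 2 effects, 1.77 and 1.57, differed by 0.20 (SE 0.18, adjusted p = 0.44). XIRP2 was at 118, 144 and 119 CPM with the ATRNL1 lentivirus, against 43, 50.4 and 54.8 CPM with the control lentivirus. It was at 45, 31.7 and 16.2 CPM with siRNA-1 and 22.8, 21.1 and 22.2 CPM with siRNA-2, against 8.93, 2.38 and 6.24 CPM with scramble. The siRNA-1 libraries of XIRP2 spread widely but did not reach scramble, and its difference was -0.82 (SE 0.35, adjusted p = 0.0776). GADL1 had a difference of 0.22 (SE 0.33, adjusted p = 0.672) and CNTN3 of 0.11 (SE 0.31, adjusted p = 0.834). NCMAP was the exception, with effects of 3.33 and 1.32 and a called difference of 2.01 (SE 0.27, adjusted p = 1.61e-06). All 5 rose with both under all 29 settings.

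Genes that fell with both were led by CAPN14, a calpain protease, MORC4, an ATPase of the MORC family, FAM83B, SLC5A1, a cotransporter of sodium and glucose, and SH3TC2, which acts in endocytic recycling in Schwann cells. MORC4 was at 17, 15.8 and 16 CPM with the ATRNL1 lentivirus, against 35.2, 35.4 and 35.4 CPM with the control lentivirus. It was at 11.4, 12 and 13.4 CPM with siRNA-1 and 10.1, 9.61 and 11.1 CPM with siRNA-2, against 20.1, 21.1 and 20.7 CPM with scramble. Libraries of each group lay close together and no groups of an arm overlapped, with a difference of -0.24 (SE 0.10, adjusted p = 0.0645). SH3TC2 was at 4.66, 3.42 and 4.43 CPM with the ATRNL1 lentivirus and 14.7, 14.5 and 15.3 CPM with the control lentivirus. It was at 1.8, 2.4 and 2.18 CPM with siRNA-1 and 1.86, 1.69 and 1.35 CPM with siRNA-2, against 4.15, 2.88 and 3.31 CPM with scramble. Its fall was the larger with overexpression, at a difference of -0.95 (SE 0.18, adjusted p = 0.000213). CAPN14 (difference -0.43, SE 0.21, adjusted p = 0.117) and FAM83B (-0.07, SE 0.14, adjusted p = 0.763) were not called for the difference, and SLC5A1 was (-0.36, SE 0.12, adjusted p = 0.0219), with the call lost under 9 settings. All 5 fell with both under all 29 settings.

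After ATRNL1, the largest positive differences belonged to genes whose level in the control lentivirus libraries stood apart from the other 4 groups. HSPA6, an inducible HSP70 chaperone, had a difference of 5.41 (SE 0.74, adjusted p = 2.57e-06), CACNA1I, a T-type calcium channel, 5.07 (SE 0.32), NDUFA4L2, a hypoxia-induced mitochondrial protein, 4.97 (SE 0.23), HSF4, a heat shock factor, 4.69 (SE 0.42) and LCNL1, a lipocalin-like protein, 4.55 (SE 0.45). NDUFA4L2 was at 4.54, 4.35 and 5.08 CPM with the ATRNL1 lentivirus, against 0.191, 0.142 and 0.0933 CPM with the control lentivirus. It was at 8.29, 7.94 and 7.69 CPM with siRNA-1 and 5.07, 6 and 6.82 CPM with siRNA-2, against 7.36, 7.24 and 6.12 CPM with scramble. The control lentivirus thus stood apart from the other 4 groups, and the knockdown effect was 0.00 (SE 0.10). Raw counts of these 5 genes in the 3 control lentivirus libraries together were 4 for HSPA6, 36 for CACNA1I, 30 for NDUFA4L2, 14 for HSF4 and 10 for LCNL1, so that the sizes rest on few reads. CACNA1I was also called for a rise of 0.56 with knockdown, in 23 of 29 settings.

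TXNIP, a thioredoxin-binding protein that limits glucose uptake, had the largest negative difference among genes of at least 1 CPM, at -4.33 (SE 0.16, adjusted p = 6.55e-16). It was at 19.5, 20.7 and 19.9 CPM with the ATRNL1 lentivirus, against 255, 275 and 282 CPM with the control lentivirus. In the siRNA arm it was at 8.1, 6.26 and 6.01 CPM with siRNA-1 and 9.49, 9.38 and 10.6 CPM with siRNA-2, against 7.25, 4.51 and 4.96 CPM with scramble. The siRNA-1 libraries overlapped scramble, and the knockdown effect was 0.31 with siRNA-1 (adjusted p = 0.141) and 0.84 with siRNA-2 (adjusted p = 1.53e-05). C4orf54 had a difference of -2.76 (SE 0.25, adjusted p = 2.88e-09), with a rise under knockdown that was lost in 5 of 29 settings. ADGRL4, an adhesion receptor of endothelium, had a difference of -2.71 (SE 0.29, adjusted p = 4.97e-08) that came more from knockdown (2.02) than from overexpression (-0.68).

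Hypoxia and glycolysis was the list with the largest positive median difference, 1.42, and 29 of its 30 genes had a positive called difference. The overexpression effect had a median of 1.32 with 29 genes higher, and the knockdown effect a median of -0.05 with 4 higher and 5 lower. NDRG1, a hypoxia-induced gene, was at 54.7, 81.2 and 71.8 CPM with the ATRNL1 lentivirus, against 2.71, 2.65 and 1.91 CPM with the control lentivirus, and at 24.1 to 57.3 CPM over the siRNA and scramble libraries. Its difference was 4.18 (SE 0.20, adjusted p = 6.26e-14). HK2, hexokinase of the first step of glycolysis, was at 828, 1221 and 989 CPM with the ATRNL1 lentivirus, against 157, 136 and 107 CPM with the control lentivirus, and at 369 to 747 CPM over the siRNA and scramble libraries. HK2 had a difference of 2.63 (SE 0.19, adjusted p = 1.21e-10) and CA9, a carbonic anhydrase, 3.05 (SE 0.23, adjusted p = 1.35e-10). For all 3 the control lentivirus libraries were the lowest of the 15. Mean log2 CPM of the list was 7.49, 7.74 and 7.63 with the ATRNL1 lentivirus and 6.13, 6.03 and 5.87 with the control lentivirus. It was 7.50 to 7.64 with siRNA-1 and 7.30 to 7.48 with siRNA-2, against 7.41 to 7.54 with scramble. The core of the hypoxia response element, ACGTG, was in 12 of 27 matched promoters of the list (44.4%), against 5101 of all (18.7%). It was also in 34.8% of those of the unfolded protein response list. The share was 22.7% for S phase, 20.7% for the integrated stress response and 16.7% for cholesterol synthesis. These letter matches were not tested for binding.

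Immediate early genes had a median overexpression effect of 1.16 and a median knockdown effect of 0.11. Of 22 immediate early genes 12 had a positive (54.5%) and 2 a negative (9.09%) called difference, against 16.5% and 15.5% of all genes tested. Their median difference was 0.99, and 0 had the opposite pairing. EGR3, a transcription factor, had a difference of 3.10 (SE 0.33, adjusted p = 6.82e-08), FOSB, of the AP-1 complex, 2.85 (SE 0.28, adjusted p = 1.48e-08) and NR4A3, a nuclear receptor, 2.59 (SE 0.14, adjusted p = 6.34e-13). NR4A3 was at 41.4, 57.4 and 43.9 CPM with the ATRNL1 lentivirus, against 7.67, 7.29 and 7 CPM with the control lentivirus, and at 12.8 to 16.3 CPM over the siRNA and scramble libraries. Of 24 receptor kinase ligands and receptors 7 had a positive (29.2%) and 6 a negative (25%) called difference. Over all genes tested these shares were 16.5% and 15.5%. Without ATRNL1 lentivirus library 1 the negative calls of this list were 3. TGFA, a ligand of the EGF receptor, was at 29, 49.4 and 37.6 CPM with the ATRNL1 lentivirus, against 1.48, 1.45 and 1.38 CPM with the control lentivirus (difference 4.51, SE 0.33, adjusted p = 1.08e-10). VEGFA, an angiogenic growth factor, had a difference of 2.08 (SE 0.12, adjusted p = 1.49e-12), and EREG, another EGF receptor ligand, rose with both, at a difference of 1.53 (SE 0.21, adjusted p = 2.2e-06). The rise of EREG with knockdown was not called against scramble library 1 only (0.29, adjusted p = 0.577), scramble library 3 only or with siRNA-2 alone.

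**Figure D5:**
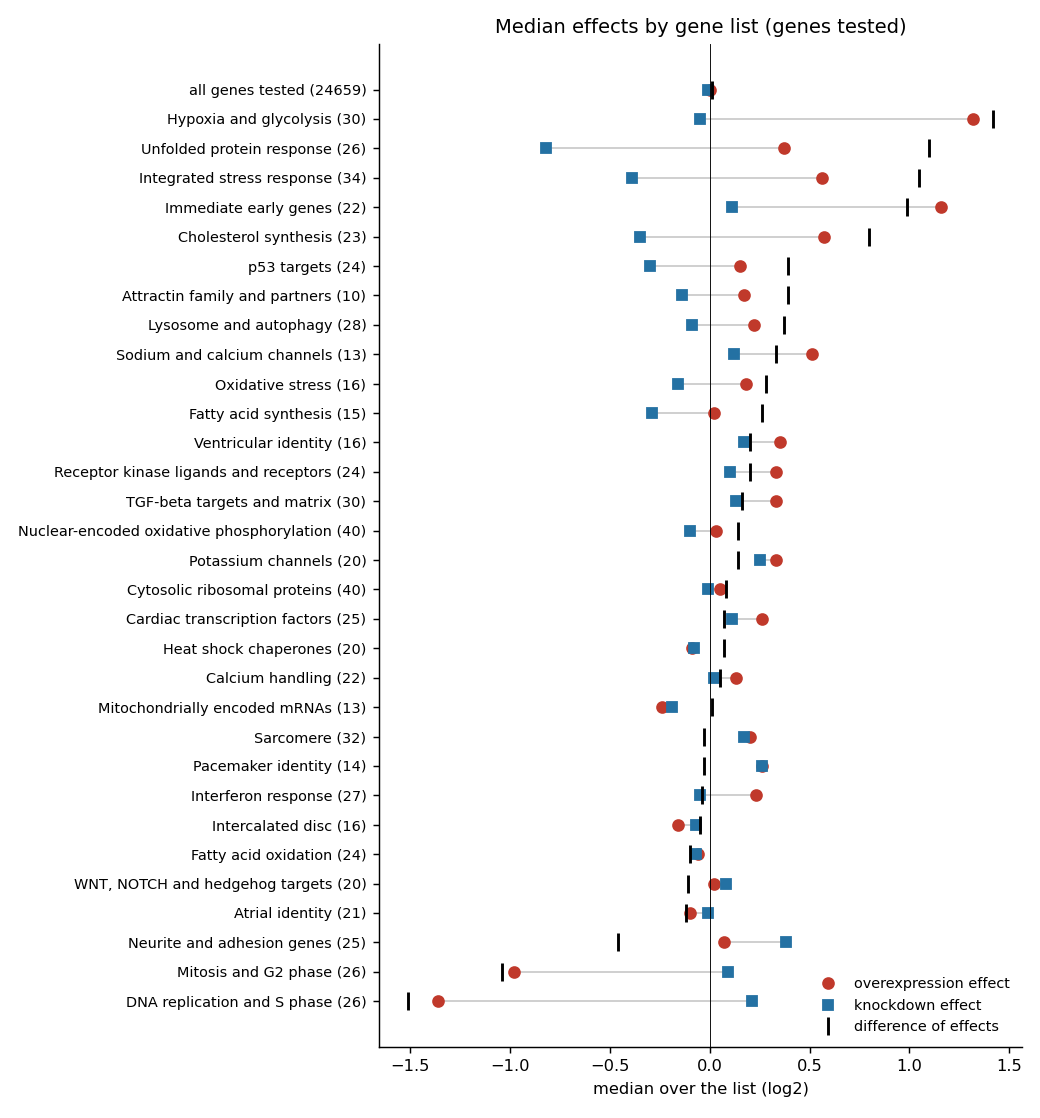
For each list (y axis, with the number of genes tested) the median overexpression effect (circles), the median knockdown effect (squares) and the median difference of effects (bars) are given on the log2 scale (x axis). The unfolded protein response, integrated stress response and cholesterol lists had medians on either side of 0, hypoxia and mitosis lists had a median knockdown effect near 0, and most cardiac lists had both medians at or above 0.

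Counts of the cardiac lists here and below stand beside 16.5% positive and 15.5% negative called differences over all genes tested. Of all genes tested 2.51% rose with both, 1.66% fell with both, 2.21% rose with overexpression and fell with knockdown, and 2.63% did the reverse. Of 32 sarcomere genes 8 rose with both and 1 fell with both. In the opposite pairings, 0 rose with overexpression and fell with knockdown and 2 did the reverse. The difference of sarcomere genes was positive for 5 (15.6%) and negative for 3 (9.38%), with a median of -0.03. The split turned on single libraries, at 4 and 7 without scramble library 1 (median -0.15), 8 and 3 without scramble library 2 (0.08) and 4 and 13 against scramble library 2 only (-0.26). TNNI3, the adult form of troponin I, was at 61.4, 67.3 and 65.6 CPM with the ATRNL1 lentivirus, against 23.6, 27.4 and 29.6 CPM with the control lentivirus (difference 1.02, SE 0.14, adjusted p = 1.54e-06). MYOM3, of the sarcomere's M band, had -1.44 (SE 0.26, adjusted p = 8.1e-05) from a rise with knockdown alone. The 10 skeletal muscle markers summed to 619 to 731 CPM with the ATRNL1 lentivirus and 394 to 399 CPM with the control lentivirus, against 926 to 1171 CPM over the siRNA and scramble libraries. Nearly all of it was CKM, creatine kinase of muscle, which heart muscle also makes, whereas MYF5 and MYF6 were at 0 in all libraries. The difference of sodium and calcium channels had a median of 0.33, positive for 6 of 13 genes and negative for 1, and 4 rose with both, among them SCN2B and SCN4B, auxiliary subunits of sodium channels. The count of 4 was 2 when any one of scramble libraries 2 and 3, siRNA-1 libraries 1 and 2 and siRNA-2 library 2 was left out. SCN4B rose with both in 18 of 29 settings, with its knockdown call lost against each scramble library alone and with siRNA-1 alone, and SCN2B in 28. SCN4B had a difference of 1.88 (SE 0.28, adjusted p = 9.08e-06), SCN2B of 0.72 (SE 0.13, adjusted p = 0.000115) and the T-type calcium channel CACNA1H of 0.88 (SE 0.20, adjusted p = 0.00145). CACNA1H was at 1.78, 2.09 and 3.06 CPM with the ATRNL1 lentivirus and 1.13 to 1.17 CPM with the control lentivirus, against 13.7 to 19 CPM over the siRNA and scramble libraries.

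Of 20 potassium channel genes 5 had a positive (25%) and 4 a negative (20%) called difference, and 4 rose with both. Over all genes tested 16.5% and 15.5% had these differences and 2.51% rose with both. The negative calls were 1 without ATRNL1 lentivirus library 1, 2 without control lentivirus library 2 and 1 without scramble library 2. KCNQ1, the pore of the slow delayed rectifier, was the 1 with the opposite pairing, at a difference of 1.11 (SE 0.15, adjusted p = 1.5e-06). It was at 11.7, 13.2 and 18.1 CPM with the ATRNL1 lentivirus, against 8.08, 10 and 10.2 CPM with the control lentivirus. Its levels were 19.8, 21.1 and 19 CPM with siRNA-1 and 31.5, 34.4 and 32.1 CPM with siRNA-2, against 36.3, 37.2 and 36.2 CPM with scramble. The fall was clear with siRNA-1 (-0.87) and not called with siRNA-2 (-0.16, adjusted p = 0.334). KCNE1, its auxiliary subunit, had a difference of 1.05 (SE 0.21, adjusted p = 0.000267), and KCNJ11, the pore of the channel that closes with ATP, of 1.35 (SE 0.14, adjusted p = 2.26e-08), both from overexpression.

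GJA1, which encodes the gap junction protein connexin 43, was at 237, 295 and 237 CPM with the ATRNL1 lentivirus, against 135, 143 and 149 CPM with the control lentivirus. It was at 147, 146 and 156 CPM with siRNA-1 and 66.2, 66.5 and 65.9 CPM with siRNA-2, against 148, 149.9 and 151 CPM with scramble. SiRNA-1 libraries stood with scramble and siRNA-2 libraries stood at less than any other group, so the fall of the mean (-0.59) came from siRNA-2 (-1.18). The difference of GJA1 was 1.44 (SE 0.10, adjusted p = 3.51e-11). Of 16 genes of the intercalated disc 4 fell with both, 2 rose with both and 1, GJA1, had the opposite pairing. DSP, the desmosomal protein desmoplakin, had a difference of 0.88 (SE 0.09, adjusted p = 3e-08) from overexpression, and GJA5, the atrial connexin 40, of -0.71 (SE 0.15, adjusted p = 0.000403), a call lost against scramble library 1 only.

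Against 16.5% and 15.5% of all genes tested, 4 of 21 atrial identity genes (19%) had a positive and 5 (23.8%) a negative called difference. Their median difference was -0.12. They had 5 and 1 against scramble library 1 only (median 0.01), 3 and 9 against scramble library 2 only (-0.36) and 3 and 8 without scramble library 1. NPR3, a clearance receptor of natriuretic peptides, was at 8.78, 12.9 and 9.97 CPM with the ATRNL1 lentivirus, against 0.861, 0.861 and 0.933 CPM with the control lentivirus, at a difference of 4.22 (SE 0.25, adjusted p = 3.24e-12). Its fall of 0.65 with knockdown was not called against scramble library 1 only (-0.07). MYL4, the atrial light chain of myosin, had a difference of -0.75 (SE 0.18, adjusted p = 0.00181) and kept the opposite pairing in 9 of 29 settings. ADM, the peptide adrenomedullin, had a difference of 0.91 (SE 0.13, adjusted p = 2.91e-06). Of 22 calcium handling genes 6 had a positive (27.3%) and 4 a negative (18.2%) called difference. STIM1, a calcium sensor of the reticulum, was the 1 that fell with overexpression and rose with knockdown (difference -0.82, SE 0.11, adjusted p = 3.54e-06). The knockdown effect of STIM1 was not called against scramble library 1 only (0.24, adjusted p = 0.352). HRC, a calcium-binding protein of the sarcoplasmic reticulum, had a difference of 0.93 (SE 0.11, adjusted p = 6e-07) and ITPR2, a calcium release channel, of -0.82 (SE 0.13, adjusted p = 2.87e-05), both from overexpression. Among cardiac transcription factors the difference was 0.77 for HEY2 (SE 0.12, adjusted p = 1.56e-05), 0.64 for MEF2D (SE 0.09, adjusted p = 4.86e-06) and 0.54 for GATA5 (SE 0.14, adjusted p = 0.00325). Of the 25 genes in this list 6 had a positive (24%) and 2 a negative (8%) called difference and 5 rose with both (median difference 0.07). Without ATRNL1 lentivirus library 2 the calls were 4 positive and 8 negative (median -0.03), and without ATRNL1 lentivirus library 1 they were 9 and 1.

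Of 30 TGF-beta targets and matrix genes 11 had a positive (36.7%) and 2 a negative (6.67%) called difference, against 16.5% and 15.5% of all genes tested. The median difference was 0.16, which was -0.09 against scramble library 2 only, and 7 genes were positive without scramble library 3. THBS1, the matrix protein thrombospondin 1, was at 237, 269 and 257 CPM with the ATRNL1 lentivirus, against 154, 137 and 118 CPM with the control lentivirus. It was at 136, 128 and 132 CPM with siRNA-1 and 113, 120.2 and 131 CPM with siRNA-2, against 223, 209 and 219 CPM with scramble. No groups of an arm overlapped, the difference was 1.68 (SE 0.11, adjusted p = 1.3e-11), and the pairing held under all 29 settings. LOX, which crosslinks collagen, had a difference of 1.71 (SE 0.21, adjusted p = 4.52e-07) and TGFB3, a TGF-beta ligand, of -1.85 (SE 0.18, adjusted p = 1.57e-08), both from overexpression.

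The other pathway lists are set beside the background of 16.5% positive and 15.5% negative calls. Positive and negative calls were 5 and 2 of 16 for ventricular identity, 1 and 5 of 14 for pacemaker identity, and 4 and 5 of 20 for heat shock chaperones. They were 5 and 6 of 24 for fatty acid oxidation, 6 and 2 of 15 for fatty acid synthesis, and 7 and 2 of 16 for oxidative stress. Nuclear-encoded oxidative phosphorylation held 13 and 2 of 40, mitochondrially encoded mRNAs 0 and 1 of 13, and cytosolic ribosomal proteins 3 and 0 of 40. Interferon response held 9 and 5 of 27 and WNT, NOTCH and hedgehog targets 3 and 2 of 20. Median differences of these 11 lists lay between -0.11 and 0.28. Marker lists of other cell types were small. Fibroblast markers held 2 positive and 1 negative called difference of 8 (median 0.08), epicardial markers 2 and 1 of 6 (0.12), endoderm and liver markers 1 and 0 of 7 (0.06) and skeletal muscle markers 2 and 1 of 5 (0.53). Endothelial and endocardial markers held 2 and 1 of 4 (0.66). Smooth muscle and pericyte markers held 0 and 4 of 9 (-0.29), pluripotent cell markers 0 and 2 of 5 (-0.57) and neural markers 1 and 3 of 6 (-0.97).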

How the data were processed

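RNA was sequenced after ribosomal RNA depletion, per the labels' protocols, although their molecule field says polyA RNA. What the authors deposited is a gene table of unnormalized whole-number counts, with a column for each of the 15 libraries. The submitters' processing notes name the build GRCh38 (hg38) and the tools DESeq2 1.30.1 and STAR 2.7.9a, without their roles. Which program counted reads, and whether it used strand, is not given in the sources used, so reads of genes that overlap or lie antisense may be shared. Column names gave the group of a library but not which labelled sample it was, and library numbers are the column order and link no samples. Identifiers were those of GENCODE release 29 in 58780 of 59429 rows. The other 649 had no gene identifier, made up 0.00157% to 0.00437% of counts and were not used.

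Low genes were removed by filterByExpr by group (minimum count 10), and after TMM scaling edgeR 4.0.16 (R 4.3.3) fitted a quasi-likelihood model with a mean for each of the 5 groups. Its biological coefficient of variation was 8.24%, with 14.5 prior degrees of freedom. Each adjusted p in the text is from this edgeR quasi-likelihood test, Benjamini-Hochberg adjusted over all genes tested, with calls under 0.05. An SE is the absolute log2 change over the square root of F. CPM values use TMM-scaled library sizes. The fit was also run on simulated counts, with an outcome that is not reported here. Alternatives were RLE factors, library size only, no filter, a mean of at least 1 CPM, DESeq2 1.42.0, limma 3.58.1 voom with and without group weights, each siRNA alone, each scramble library as the sole control, each library left out, each effect fitted on its own libraries, stricter calls and, added after seeing the data, the 3 midway libraries left out.

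The members and the 39 gene lists were chosen with earlier results of these data known. Besides ATRNL1 and ATRN, genes with a symbol and a mean of at least 1 CPM were named by rule. These were the 5 of each pairing with the largest smaller effect among genes whose siRNAs had the same sign, the 6 largest called differences in each direction, and up to 3 members of a described list with the largest difference. XBP1 and MCM6 were added for their promoters, and some genes that the rule names are not reported here. Promoter sequences came from RefSeq tables of GRCh38.p14.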

Additional observations from a re-analysis of the deposited data

Results flagged for a closer look

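The siRNA-1 effect and the siRNA-2 effect differed by the test of siRNA-1 against siRNA-2 in 25 of the named genes, which bears on a knockdown effect taken as their mean. Values are the siRNA-1 effect minus the siRNA-2 effect on the log2 scale, by edgeR's quasi-likelihood test. ATRNL1 itself was 0.87 higher with siRNA-1, so the first siRNA lowered it less, and ATRN was 0.36 and MGRN1 0.39 higher. Of genes that fell with overexpression and rose with knockdown, GPR137C was at -0.65, TXNIP at -0.53, ADGRL4 at -1.17 and C4orf54 at 0.61. The cholesterol genes INSIG1 and MVD were at -0.33 and -0.41. Of genes that moved the same way with both, NCMAP was at -0.93, CAPN14 at 0.57, MORC4 at 0.26 and SLC5A1 at 0.70.

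NDUFA4L2 was at 0.42, CA9 of the hypoxia list at 0.55 and EGR3 of the immediate early list at 0.73. Cardiac genes were GJA1 at 1.18, MYOM3 at -1.13, TNNI3 at -0.44, SCN2B at -0.59, KCNJ11 at 0.33, KCNQ1 at -0.71, GATA5 at -0.35 and ITPR2 at 0.37. TGFB3 was at 0.46. Outside the genes tested, rows with no gene identifier held up to 0.00437% of a library's counts.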

How the results depend on the processing

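Over the alternatives, the differences of the 87 named genes gave 2414 values that kept the call or the lack of one. A further 13 lost the call, 9 gained it and 0 were called in the reverse direction. Differences that were not called could change sign, such as KIT (-0.22 to 0.43) and CNTN3 (-0.32 to 0.35). Counts of calls moved more, and settings with 1 scramble library as the only control tested with fewer libraries. Set against scramble library 1 only, the difference was called positive for 2693 and negative for 2193 genes, and the pairings held 108 (up with overexpression, down with knockdown), 102 (the reverse), 225 (up with both) and 214 (down with both) genes. In the same order they held 178, 308, 291 and 107 against scramble library 3 only, 145, 232, 251 and 103 without the 3 midway libraries, 238, 327, 341 and 172 at an adjusted p under 0.01, 169, 275, 281 and 113 with each siRNA called, and 11, 18, 38 and 6 with both effects of at least 1 on the log2 scale (difference 1021 and 1229). With siRNA-1 alone 338 genes rose with overexpression and fell with knockdown and 181 fell with both, and against scramble library 2 only the pairings held 490, 823, 442 and 170. Leaving out 1 library gave 297 to 657, 369 to 892, 407 to 708 and 221 to 631 genes. Moves of over 1.5 times came without scramble library 2 (304 and 369 in the opposite pairings), scramble library 3 (297, 383, 407 and 221), ATRNL1 lentivirus library 2 (631 fell with both) and control lentivirus library 2 (265 fell with both). The cause was not tested. The median difference of all genes was 0.01, and it was 0.03 with RLE factors and -0.03 by library size only, where 3660 genes were positive and 4365 negative. No paired analysis was possible because the columns carry no replicate numbers that match the labels. Depth limits genes near the filter, such as HSPA6, which had 4 reads over the control lentivirus libraries.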
